A study of Sus scrofa with 6 samples.

Results

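The genes described here handle bile acids and fatty acids in the cells that line the ileum. They are 9 of the 20648 genes in the tables, chosen by name for their known roles, and all 9 were found. SLC10A2 takes bile acids up from the gut lumen, FABP6, FABP1 and FABP2 bind bile acids or fatty acids in the cytosol, and SLC51A with SLC51B passes bile acids out on the blood side. NR1H4 is the bile acid receptor FXR, and FGF19 and NR0B2 are known targets of it.

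As background, the ileum is the stretch of gut where most bile acids are recovered. A bile acid enters an absorptive enterocyte through the SLC10A2 carrier, travels bound to FABP6, and leaves through the SLC51A-SLC51B pair, after which blood carries it back to the liver. Bile acids inside the cell bind the nuclear receptor NR1H4, which raises the transcription of FGF19, a hormone that slows bile acid synthesis in the liver, and of NR0B2, a repressor. FABP1 and FABP2 are cytosolic carriers of fatty acids, and FABP1 also binds bile acids.

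Ileal cells of male pigs (Sus scrofa) were measured with the 10x Genomics 3′ single-cell assay. Each of 6 ages (0, 1, 3, 7, 14 and 21 days after birth) has 1 library. The study's methods give 5 Large White piglets per age, suckled by their sows, whose scraped mucosa was dissociated and run in 1 channel of the chip for each age. The piglets of an age cannot be told apart within its library, so the age groups have no replicates and no test between ages was possible. All groups were untreated and differ only by age and library, and age and library cannot be told apart.

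The whole libraries held 77391932 to 100348769 UMIs (unique molecular identifiers, each marking 1 captured RNA molecule). Barcodes with at least 1000 UMIs and 500 genes were taken as cells, which gave 76099 cells. Of these, 57503 were immune, with no UMI of EPCAM, KRT8 or VIL1 and at least 3 UMIs of CD79B, MS4A1, CD3E and PTPRC together. Only 4054 were epithelial, with at least 5 UMIs of EPCAM, KRT8 and VIL1 together and at most 1 UMI of PTPRC. Epithelial cells with under 25% of their UMIs from the mitochondrial genome numbered 2536, 855, 74, 154, 27 and 1 on days 0, 1, 3, 7, 14 and 21. Their values on day 14 therefore rest on 27 cells, and the single cell of day 21 held no UMI of any of the 9 genes. Pairs of libraries shared 31 to 68 cell barcodes, and 2 barcodes were epithelial in both of their libraries, days 0 and 1.

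The composition of the epithelial cells differed between ages, and this stands beside every difference between ages below. Lists of marker genes were summed per 10000 UMIs in epithelial cells under 25% mitochondrial UMIs. The enterocyte list (APOA1, APOA4, APOC3, APOB, ANPEP, DPP4, MEP1A, LCT, SLC5A1 and RBP2) stood at 50.4, 139, 5.58, 102 and 145 on days 0, 1, 3, 7 and 14. The goblet list stood at 144, 94.4, 131, 10.6 and 1.81, and the enteroendocrine list at 98.8, 38.7, 91.1, 104 and 0.17. Cells whose leading list was the enterocyte list, with at least 3 UMIs of it, numbered 1072 of 2536, 523 of 855, 3 of 74, 90 of 154 and 27 of 27, and are called the enterocyte-list subset below. It is a range of a marker sum and not a cell type, and a deeper cell enters it more easily. The few epithelial cells of day 3 were thus mostly of the goblet and enteroendocrine lists. B lineage genes stood at 0.138 to 1.26 in the epithelial cells of days 0 to 14 against 9.92 to 32.3 in immune cells. Myeloid genes stood at 0.495, 0.691, 1.23, 2.29 and 0.0565 in epithelial cells of days 0 to 14, against 2.35, 15.4, 0.520, 0.141 and 0.457 in immune cells, so they were higher in epithelial cells on days 3 and 7. The list holds AIF1, which was found in epithelial cells with GP2 and SPIB described further on.

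A level below is the UMIs of a gene per 10000 UMIs, both summed over the cells of a pool, and the range in brackets is an exact Poisson 95% interval. Intervals of ratios are exact conditional binomial, and those of shares exact Clopper-Pearson. All of them cover counting error only, not the spread between cells, animals or libraries. Since UMIs mark molecules of the 3′ end, a level is not divided by gene length. In a pool, fewer expressing cells and less RNA per expressing cell cannot be told apart. Immune cells and barcodes with 100 UMIs or fewer, which hold RNA outside called cells, served as background.

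SLC10A2, the apical uptake carrier (chromosome 11: 71328801 to 71348779 in Sscrofa11.1, protein coding), was hardly detected before day 7. Its level in epithelial cells was 0.0455 (0.0391 to 0.0527) on day 0, 0.0643 (0.0533 to 0.0770) on day 1, 0.0141 on day 3 from a single UMI, 0.459 (0.346 to 0.597) on day 7 and 10.2 (8.80 to 11.8) on day 14. These rest on 178, 119, 1, 55 and 181 UMIs. The intervals of days 0 and 1 did not overlap, and day 14 stood above all other ages. The day 14 level was carried by many cells: 25 of the 27 held a UMI, the highest held 26, and the level without it was 9.43. In immune cells SLC10A2 was at most 0.0035 and in background barcodes at most 0.0511. Barcodes of 50 UMIs or fewer stood at 0.0519 (0.0224 to 0.102) on day 1 and held 0 UMIs of it on day 0. The day 1 epithelial level was thus not above that background beyond counting error.

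Cut down to 1000 UMIs each, 0.276% of epithelial cells held an SLC10A2 UMI on day 0, 0.819% on day 1, 0% of 74 cells on day 3 (3 cells would be 4.05%, and the interval reaches 4.86%), 3.25% on day 7 and 51.9% (31.9 to 71.3%) on day 14. The cut is 1 random draw for each pool, and small shares depend on it: on day 1, 7 of the 855 epithelial cells held a UMI in their draw and 11 of the 523 enterocyte-list cells among them in a separate draw. Without that cut the shares were 5.21%, 10.8%, 1.35%, 14.9% and 92.6%, at median depths of 10654, 18161, 8989, 6932 and 6146 UMIs. In immune cells cut down alike the share was at most 0.0499%, from median depths of 3366 to 4635 UMIs. The depth of the day 14 cells was the lowest and their share the highest.

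FABP6, the ileal bile acid binding protein (chromosome 16: 63297594 to 63303675), was found in epithelial cells at every age from 0 to 14 days. Its level was 11.6 (11.5 to 11.7), 27.3 (27.1 to 27.6), 3.24 (2.84 to 3.69), 111 (109 to 113) and 197 (191 to 204) on days 0, 1, 3, 7 and 14. No interval overlapped another, and the order of ages from the lowest was 3, 0, 1, 7 and 14. The day 3 value was decided by 1 cell, which held 146 of the 230 UMIs, and without it the level was 1.20. Without the highest 5 cells of each age the levels were 9.87, 19.3, 0.169, 79.6 and 136. These lie outside the intervals above, which leave out the spread between cells, but keep the same order of ages.

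The spread of FABP6 over cells differed between ages as well. On days 0 and 1 the median epithelial cell held none, and 29 of 2536 and 12 of 855 cells held 50% of all FABP6 UMIs. On day 7 the median cell stood at 5.52 per 10000 and 10 of 154 cells held 50%. On day 14 all 27 cells held FABP6, with a median of 162 and quartiles of 87.5 and 222. The highest single cells were far apart from the rest at the early ages, with 1398 per 10000 on day 0 and 2466 on day 1, above the highest cell of day 14 (824). FABP6 thus lay in few cells at the early ages, and every cell of day 14 held some, with 6 of the 27 holding 50%.

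**Figure D1:**
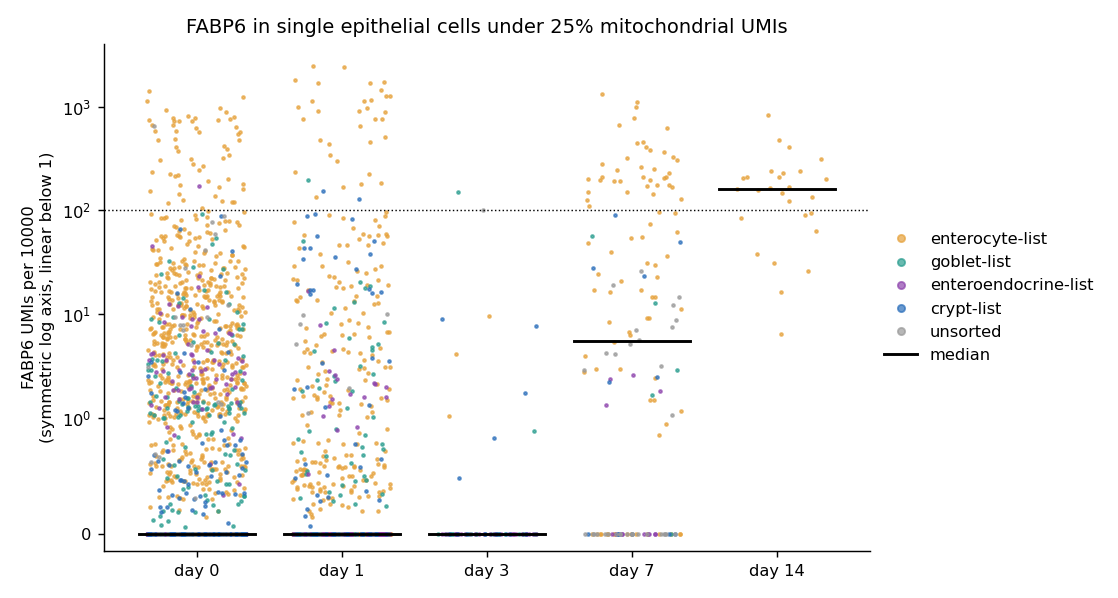
FABP6 per 10000 UMIs in each epithelial cell under 25% mitochondrial UMIs (vertical axis, log scale above 1 and linear below) by age in days (horizontal axis), coloured by the marker list that leads in the cell. The black line is the median and the dotted line marks 100; the median lies at 0 on days 0, 1 and 3, at 5.52 on day 7 and at 162 on day 14, while single cells reach 1398 on day 0 and 2466 on day 1.

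The share of cells with a FABP6 UMI went the same way. At 1000 UMIs per cell it was 15.7% (14.3 to 17.2%), 16.6% (14.2 to 19.3%), 5.41% (1.49 to 13.3%), 51.9% (43.8 to 60.1%) and 100% (87.2 to 100%) on days 0, 1, 3, 7 and 14. Uncut, the shares were 36.7%, 41.2%, 14.9%, 66.2% and 100%. In immune cells, which should lack the gene, the cut shares were 4.33%, 3.94%, 0.399%, 2.77%, 0.118% and 0.0827% on days 0 to 21. The intervals of days 0 and 1 overlapped although the summed level of day 1 was 2.35 times that of day 0.

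FABP1, the fatty acid binding protein first known from liver (chromosome 3: 57850511 to 57854966), followed a different course. Its level was 7.69 (7.60 to 7.78), 4.65 (4.56 to 4.75), 2.62 (2.26 to 3.03), 15.6 (14.9 to 16.4) and 26.2 (23.9 to 28.7) on days 0, 1, 3, 7 and 14. The day 0 level was thus above those of days 1 and 3. A few cells set the values of days 3 and 7: 1 cell held 148 of 186 UMIs on day 3, where the level without it was 0.550, and another held 616 of 1875 on day 7. The day 7 level was 10.7 without that cell and 6.19 without the highest 5.

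FABP2, the intestinal fatty acid binding protein (chromosome 8: 104464342 to 104468059), stood at 5.49 (5.42 to 5.57), 8.57 (8.44 to 8.71), 0.0141, 13.8 (13.1 to 14.5) and 38.0 (35.2 to 41.0) on days 0, 1, 3, 7 and 14. The day 3 value is 1 UMI in 74 cells. Its UMIs were shared by more cells than those of FABP6: 166, 56, 14 and 7 cells held 50% of them on days 0, 1, 7 and 14.

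The basolateral export pair was present from birth. SLC51A (chromosome 13: 133851775 to 133869753) stood at 0.505 (0.483 to 0.528), 0.932 (0.889 to 0.978), 0.0282, 1.72 (1.49 to 1.97) and 17.9 (lower bound 16.0) on days 0, 1, 3, 7 and 14. Its partner SLC51B (chromosome 1: 163081145 to 163089491) stood at 3.12 (3.06 to 3.17), 2.69 (2.62 to 2.77), 0.169, 6.85 (6.39 to 7.33) and 20.5 (18.4 to 22.7). The day 3 values rest on 2 and 12 UMIs. The ages ran in one order for both genes except that day 1 lay above day 0 for SLC51A and below it for SLC51B. On day 14 every cell held SLC51A.

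NR1H4, the receptor (chromosome 5: 83607222 to 83732668), stood at 0.661 (0.636 to 0.687), 1.29 (1.24 to 1.34), 0.113 (0.0487 to 0.222), 1.76 (1.53 to 2.01) and 6.67 (5.52 to 7.99). No interval overlapped another, and the order of ages was that of FABP6.

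FGF19 and NR0B2, the 2 genes named above as targets of the receptor, did not share that order, while SLC10A2, FABP2 and SLC51A did by value. FGF19 and NR0B2 are not a full list of its targets, so they do not stand for targets of the receptor in general. FGF19 (chromosome 2: 3583027 to 3586985) gave 150 UMIs in 126 epithelial cells on day 0 and 40 UMIs in 32 cells on day 1, levels of 0.0384 (0.0325 to 0.0450) and 0.0216 (0.0154 to 0.0294). Background barcodes stood at 0.0548 (0.0237 to 0.108) and 0.0234 (0.0117 to 0.0419) on these days, from 8 and 11 UMIs, and immune cells at 0.000753 and 0.000699, from 1 and 2 UMIs. The epithelial levels were thus above those of immune cells and not above those of the background barcodes. FGF19 gave none in the epithelial cells of days 3, 7 and 14, which allows levels of up to 0.0423, 0.0250 and 0.170 at 3 counts. Those limits lie at or above the day 1 level, so a difference from day 1 was not detectable at this depth. The limit of day 7 lies below the level of day 0. Over all cells of a library FGF19 had 216 UMIs on day 0, 64 on day 1 and 0 in the 11361, 12634, 15956 and 13818 cells of the later ages. Of those later cells, 9015, 10502, 15287 and 13307 were immune, a group that hardly held FGF19 on days 0 and 1 either. The counts of 0 over all cells thus add little to the epithelial limits.

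NR0B2 (chromosome 6: 84225670 to 84228156) stood at 0.288 (0.271 to 0.305) on day 0. It stood at 0.150 (0.133 to 0.168) on day 1, at 0.0141 from 1 UMI on day 3, at 0.142 (0.0826 to 0.227) on day 7 and at 0.113 (0.0137 to 0.408) on day 14. The intervals of days 1, 7 and 14 overlapped, and that of day 14 also holds the day 0 level. On day 7, 1 cell held 11 of the 17 UMIs, and the level without it was 0.0506. NR0B2 was thus above its levels of days 1, 3 and 7 at birth, the age at which SLC10A2, FABP6 and NR1H4 were below their levels of days 1, 7 and 14.

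**Figure D2:**
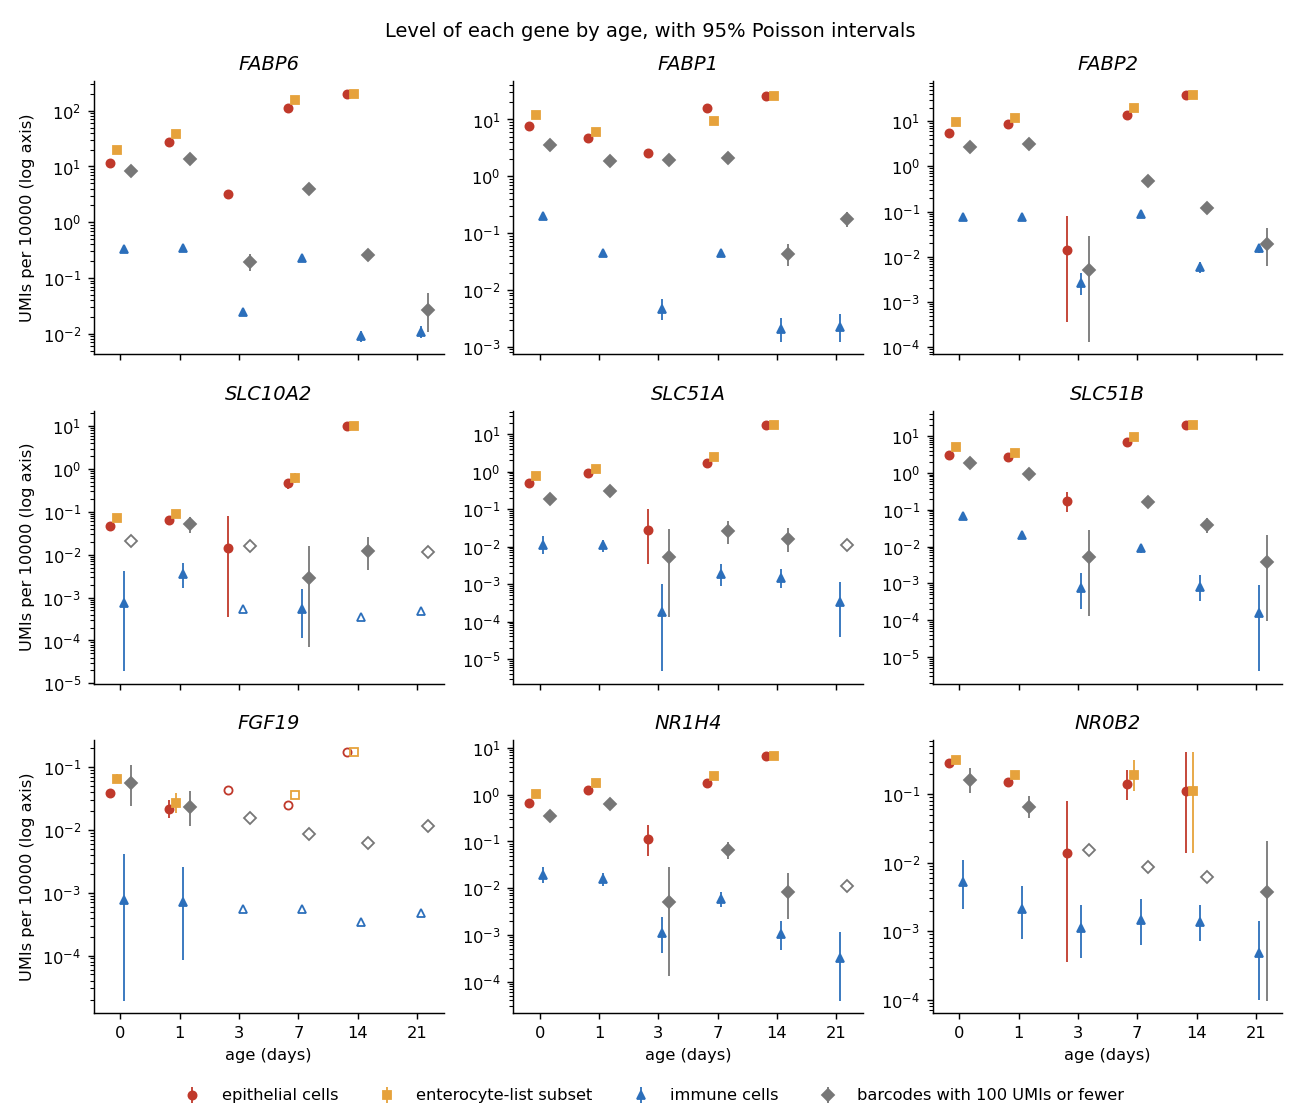
Level of each of the 9 genes (UMIs per 10000, log axis) against age in days, in epithelial cells under 25% mitochondrial UMIs (red circles), the enterocyte-list subset (orange squares), immune cells (blue triangles) and barcodes of 100 UMIs or fewer (grey diamonds). Bars are exact Poisson 95% intervals, open symbols are the limit that a count of 0 allows, and pools under 20 cells are left out; SLC10A2 in epithelial cells goes from 0.0455 on day 0 to 10.2 on day 14, while NR0B2 stands at 0.288 on day 0 and 0.150 on day 1.

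Neighbouring ages were compared by the ratio of levels, for genes at 0.1 UMIs per 10000 or more in either pool, and a gene was called at 2-fold or more. Between days 0 and 1, 1 of the 7 genes compared was called higher, against 5.99% of all genes compared. It was FABP6, at 2.35 (2.32 to 2.38) times its day 0 level. NR1H4 stood at 1.95, SLC51A at 1.85, FABP2 at 1.56, SLC51B at 0.864, FABP1 at 0.605 and NR0B2 at 0.521 times the day 0 level, all within 2-fold. The median gene moved by 0.14 on the log2 scale between these pools. SLC10A2 and FGF19 lay under the minimum level at both ages.

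Between days 1 and 3, 6 of 7 genes were called lower, against 16.3% of all genes, and only FABP1, at 0.563, was within 2-fold. FABP1 rested on few cells there: without the cell with most UMIs at each age it stood at 0.121, and without cells holding GP2 or SPIB UMIs at 0.00887, so that it too was then lower. The NR0B2 call rests on 1 UMI on day 3, with a ratio of 0.0941 (0.00237 to 0.529). Between days 3 and 7 all 8 genes compared were called higher, against 20.4%. Of these, FABP2, SLC10A2 and NR0B2 had 1 UMI each on day 3 and SLC51A had 2. Without 1 cell of day 7, NR0B2 stood at 0.0506 on that day, under the minimum level. Both comparisons go through the 74 cells of day 3, of which 3 were in the enterocyte-list subset, and the part of that composition in them was not tested.

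From day 7 to day 14, 5 of 8 genes were called higher, against 10.3% of all genes. SLC10A2 stood at 22.3 (16.4 to 30.7) times, SLC51A at 10.4 (8.72 to 12.5) times and NR1H4 at 3.79 (3.00 to 4.77) times its day 7 level. SLC51B stood at 2.99 (2.63 to 3.39) times and FABP2 at 2.76 (2.52 to 3.02) times. FABP6 at 1.77, FABP1 at 1.68 and NR0B2 at 0.797 were within 2-fold. The uptake carrier and SLC51A thus stood furthest from their day 7 levels. Without cells holding GP2 or SPIB UMIs, which are described further on, FABP1 stood at 11.6 times. The median gene moved by -0.28 on the log2 scale.

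The same ratios within the enterocyte-list subset bear on composition in part, since all ages then have the same leading list. The cells within the subset can still differ between ages. Day 3, with 3 such cells, drops out, and day 7 is set against day 1. The subset's FABP6 levels were 19.8, 38.0, 157 and 197 on days 0, 1, 7 and 14. Its SLC10A2 levels were 0.0705, 0.0874, 0.629 and 10.2, and its SLC51A levels 0.790, 1.18, 2.42 and 17.9. Its NR1H4 levels were 1.05, 1.81, 2.45 and 6.67.

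Between days 0 and 1 none of 7 genes was called in the subset, where 10.7% of all genes were. FABP6 stood at 1.92 times and NR1H4 at 1.73 times the day 0 level, and FABP1, at 12.2 and 6.14 on days 0 and 1, stood at 0.502 times. The call of FABP6 between all epithelial cells of days 0 and 1 was thus lost in the subset. The median gene of the subset moved by 0.22 on the log2 scale here.

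From day 1 to day 7, 4 of 8 genes were called higher in the subset, against 10.5% of all genes. SLC10A2 stood at 7.20 (5.05 to 10.1) times, FABP6 at 4.13 (4.05 to 4.22) times, SLC51B at 2.74 times and SLC51A at 2.05 times the day 1 level. From day 7 to day 14, 5 of 8 were called higher, against 11.4%. SLC10A2 stood at 16.3 (11.9 to 22.6) times, SLC51A at 7.41 (6.19 to 8.89) times, FABP1 at 2.74 times, NR1H4 at 2.72 times and SLC51B at 2.13 times the day 7 level. FABP6 stood at 1.26 and FABP2 at 1.92 times. The FABP1 ratio rests on a day 7 level set by few cells: 1 cell held 256 of 793 UMIs, and the level without it was 6.62. All day 7 epithelial cells with no UMI of GP2 and SPIB held 186 FABP1 UMIs, and those with 1 or 2 held 8. Most of the 793 therefore lay in cells with 3 or more. The larger ratio of FABP6 was thus the one before day 7, and that of SLC51A the one after it. SLC10A2 also had its larger ratio after day 7, but its day 1 level was 0.0874, from 103 UMIs. That lies within the interval of day 1 barcodes of 50 UMIs or fewer (0.0224 to 0.102). Its ratio before day 7 is therefore uncertain, and a difference in timing between SLC10A2 and FABP6 was not settled.

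**Figure D3:**
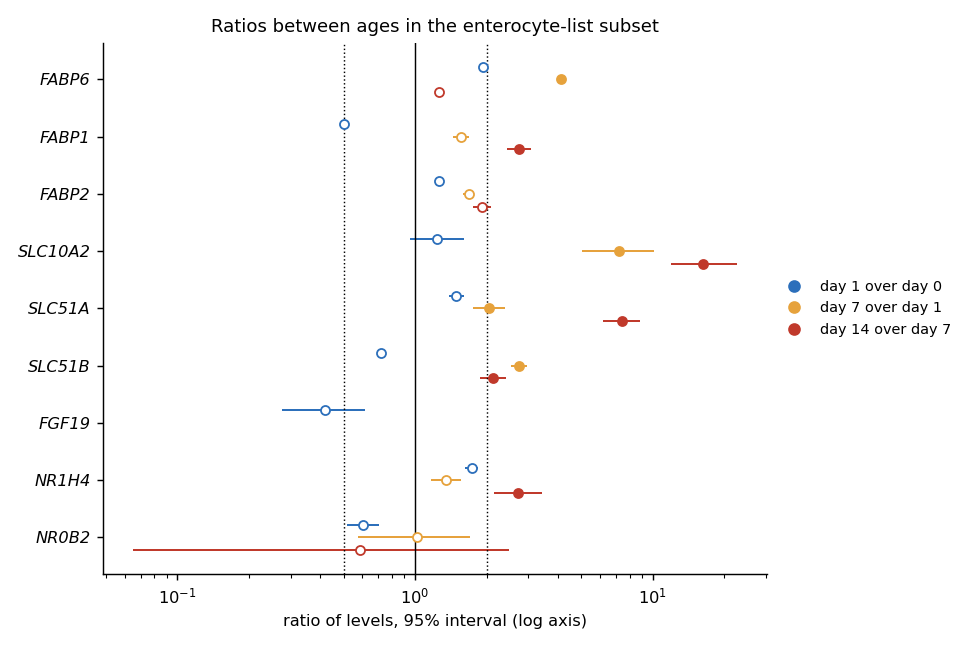
Ratio of levels between ages (log axis) in the enterocyte-list subset for each gene, day 1 over day 0 in blue, day 7 over day 1 in orange and day 14 over day 7 in red, with exact 95% intervals. Filled points are 2-fold or more at the minimum level of 0.1, dotted lines mark 0.5 and 2, and genes with 0 UMIs in a pool are not drawn; SLC10A2 stands at 7.20 and 16.3 in the later steps, where FABP6 stands at 4.13 and 1.26.

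FGF19 in the subset gave 139 UMIs on day 0 and 32 on day 1, levels of 0.0649 (0.0546 to 0.0767) and 0.0271 (0.0186 to 0.0383), and none on day 7, which allows up to 0.0363. The day 0 level lies above that limit and the day 1 level below it. NR0B2 stood at 0.313, 0.189, 0.193 and 0.113 in the subset on days 0, 1, 7 and 14, the last from 2 UMIs.

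On days 0 and 1 the enterocyte-list subset was set against the goblet-list subset of the same library. On day 0, 6 of 7 genes were 2-fold or more above the goblet-list subset, against 8.27% of all genes: FABP6 at 10.4 times, FABP2 at 7.14, NR1H4 at 5.88, SLC51A at 4.85, SLC51B at 4.80 and FABP1 at 4.28. NR0B2 was the exception, with 0.313 in the enterocyte-list subset and 0.367 in the goblet-list subset, a ratio of 0.852 (0.746 to 0.974). On day 1, 3 of 7 were called, against 7.4%: FABP6 at 8.17 times, NR1H4 at 2.84 and FABP2 at 2.03.

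In goblet-list cells of day 1 against those of day 0, of 7 genes, 4 were called higher, against 6.88% of all genes, and 1 lower, against 2.76%. FABP2 was at 5.81 against 1.31, SLC51A at 0.709 against 0.163, NR1H4 at 0.638 against 0.178 and FABP6 at 4.65 against 1.90. NR0B2 was at 0.141 against 0.367. The goblet-list FABP6 of day 1 was 3.21 without 1 cell that held 458 of its 1451 UMIs. Background barcodes of day 1 stood at 13.7 for FABP6 and 0.640 for NR1H4, so neither stood above them, and the part of RNA outside cells was not tested. In the enteroendocrine-list subset none was called higher and 4 of 7 lower, against 4.42%, namely FABP1, FABP2, SLC51B and NR0B2, the last from 1 UMI on day 1. FABP1 stood there at 0.878 and 0.178 on days 0 and 1, below background barcodes at 3.56 and 1.83, and 1 cell held 104 of its 294 UMIs of day 0. FABP2 stood at 0.403 and 0.149, below background barcodes at 2.63 and 3.16. NR1H4 stood there at 0.358 on day 0 and 0.416 on day 1.

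NR1H4 UMIs were also found in cells outside the epithelial gate. Cells outside the epithelial gate led by stromal genes (COL3A1, COL1A1, COL1A2, PDGFRA and DCN) stood at 0.149, 0.153 and 0.0958 on days 0, 1 and 3, against 0.0196, 0.0154 and 0.00111 in immune cells of these ages. Background barcodes stood at 0.356, 0.640 and 0.00519. On day 3 the stromal-list level was therefore above both backgrounds, and on days 0 and 1 it was below that of the background barcodes.

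How far the other genes go with FABP6 was described by sorting epithelial cells, of both mitochondrial sides, by FABP6 per 10000 UMIs, with FABP6 itself removed from the totals. The ranges were chosen after the values were seen. Cells at 100 or more numbered 75 (2.74%), 60 (5.99%), 2 (2.22%), 43 (22.4%) and 18 (64.3%) on days 0, 1, 3, 7 and 14. They held 65.6%, 81.9%, 78.9%, 90.9% and 92.0% of all FABP6 UMIs.

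The carriers stood higher in the cells at 100 or more than in cells below 1. SLC10A2 stood at 0.404 against 0.0266 on day 0, at 0.339 against 0.0686 on day 1 and at 1.25 against 0.0913 on day 7. SLC51A stood at 3.66 against 0.305, 2.89 against 0.766 and 4.05 against 0.548 at the same ages. SLC51B stood at 8.59 against 2.39, 4.47 against 2.04 and 11.8 against 3.41. FABP2 stood at 17.4 against 3.95, 24.6 against 5.68 and 31.3 against 4.26. The values were thus higher in FABP6-rich cells at all 3 ages, where the cells below 1 include those of the goblet and enteroendocrine lists.

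FABP1 and NR1H4 were less regular. FABP1 stood at 12.2 against 4.45 on day 0 and at 15.5 against 2.17 on day 1, but at 6.27 (5.48 to 7.14) against 7.54 (6.63 to 8.54) on day 7. NR1H4 stood at 1.82 against 0.537 on day 0, at 1.06 against 1.40 on day 1 and at 3.52 against 0.852 on day 7. NR0B2 stood at 0.209 against 0.249 on day 0. FGF19 stood at 0.181 (0.0964 to 0.309) against 0.0274 (0.0214 to 0.0345) on day 0, from 13 and 71 UMIs, and had 2 UMIs in the richest cells of day 1.

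Other genes of the absorptive cell did not all go with FABP6. RBP2, the cellular retinol binding protein of enterocytes, stood at 6.29 in cells at 100 or more and at 13.6 in cells below 1 on day 0, and at 9.28 against 40.1 on day 1. On day 7 it stood at 18.6 against 2.71. ABCB1, an apical efflux pump, stood at 3.02 against 0.561, 2.18 against 0.698 and 2.41 against 1.16 on days 0, 1 and 7. The goblet peptide TFF3 stood at 0.96 against 141 on day 0 and at 0.28 against 75.5 on day 1.

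Detection was compared in single cells cut down to 1000 UMIs. On day 0, 399 cells held FABP6 and 2137 did not, and FABP1 was found in 51.4% against 21.3% of them, FABP2 in 39.1% against 18.3% and SLC51B in 34.6% against 15.7%. NR0B2 was found in 1.75% (0.708 to 3.58%) against 2.34%. On day 1 NR1H4 was found in 12.7% of 142 cells with FABP6 and 12.9% of 713 without. On day 7 FABP1 was found in 28.8% of 80 cells with FABP6 and 31.1% of 74 without, while FABP2 was found in 53.8% against 24.3% and SLC51B in 43.8% against 16.2%.

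Within the enterocyte-list subset, which leaves out cells led by the other lists, part of this contrast was absent on day 0. FABP2 was found in 47.8% of 301 cells with FABP6 and 47.5% of 771 without, SLC51B in 37.9% against 36.4% and NR1H4 in 9.30% against 8.82%. FABP1, in 60.1% (54.4 to 65.7%) against 45.1% (41.6 to 48.7%), and SLC51A, in 15.3% (11.4 to 19.9%) against 5.32% (3.84 to 7.15%), were still found more often beside FABP6, beyond counting error. SLC10A2 was found in 1.99% (0.735 to 4.29%) against 0.130% (0.00328 to 0.721%) in the draw of this subset, and in 0.251% against 0.281% in that of all epithelial cells. On day 1 FABP1 was found in 55.6% of 108 cells against 21.4% of 415, FABP2 in 62.0% against 40.2% and SLC51B in 36.1% against 22.7%. SLC10A2, in 0.926% against 2.41%, and NR1H4, in 14.8% against 17.1%, went the other way, with overlapping intervals.

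FABP1 was the gene that parted from the others on day 7, and most of its UMIs lay in cells that also held GP2, a membrane glycoprotein known as a bacterial receptor of microfold cells, and SPIB, a transcription factor. These genes and those named with them here were picked after the values were seen, and no cell type name was given to the cells. Epithelial cells of both mitochondrial sides with 3 or more UMIs of GP2 and SPIB together numbered 97, 58, 11, 58 and 0 on days 0, 1, 3, 7 and 14. They held 6.73%, 21.2%, 98.9% and 89.9% of the epithelial FABP1 UMIs on days 0, 1, 3 and 7.

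The FABP1 level in these cells was 10.1, 12.3, 17.3 and 52.7 on days 0, 1, 3 and 7. On day 3, 3 of the 11 cells held any FABP1 and 1 cell held 148 of the 184 UMIs, and on day 7, 1 cell held 616 of the 1730. In cells with no UMI of GP2 and SPIB it was 7.63, 3.94, 0.0309, 2.10 and 24.8 on days 0, 1, 3, 7 and 14. Outside the GP2 and SPIB cells FABP1 was therefore low on days 3 and 7 and high on day 14.

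The GP2 and SPIB cells held FABP6 too, with lower levels of FABP2, SLC51B and NR1H4 on days 0, 1 and 7 than epithelial cells without. FABP6 stood there at 29.2, 82.4, 18.7 and 32.2, against 10.4, 21.9, 0.371 and 134 in cells without GP2 and SPIB. On days 0, 1 and 7 FABP2 stood at 1.47, 2.37 and 3.44, against 5.70, 8.96 and 15.8 in cells without. SLC51B stood at 1.07, 0.964 and 0.670, against 3.23, 2.82 and 8.77, and NR1H4 at 0.217, 0.253 and 0.305, against 0.692, 1.39 and 2.17. On day 3 the 11 cells held no UMI of these 3 genes, which allows levels up to 0.347 by the interval, above the 0.201 of SLC51B and 0.124 of NR1H4 in cells without, so no difference was detectable. SLC51A stood at 0.318, 0.611 and 0.487 on days 0, 1 and 7, against 0.512, 0.982 and 2.02, and NR0B2 at 0.120 and 0.0532 on days 0 and 1, against 0.296 and 0.157. SLC10A2 stood at 0.0674 (0.0368 to 0.113) on day 0, against 0.0465 (0.0397 to 0.0541), and had 1 to 3 UMIs at the later ages. SPP1 stood at 43.4, 22.6, 84.1 and 116 in them, and the chemokine gene CCL20 between 17.3 and 63.5. AIF1, which is on the myeloid list, stood at 6.53, 5.62, 5.64 and 8.07. On day 3, 84.0% of FABP6 UMIs lay in the 11 GP2 and SPIB cells, where 1 cell held 146 of the 199 UMIs.

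**Figure D4:**
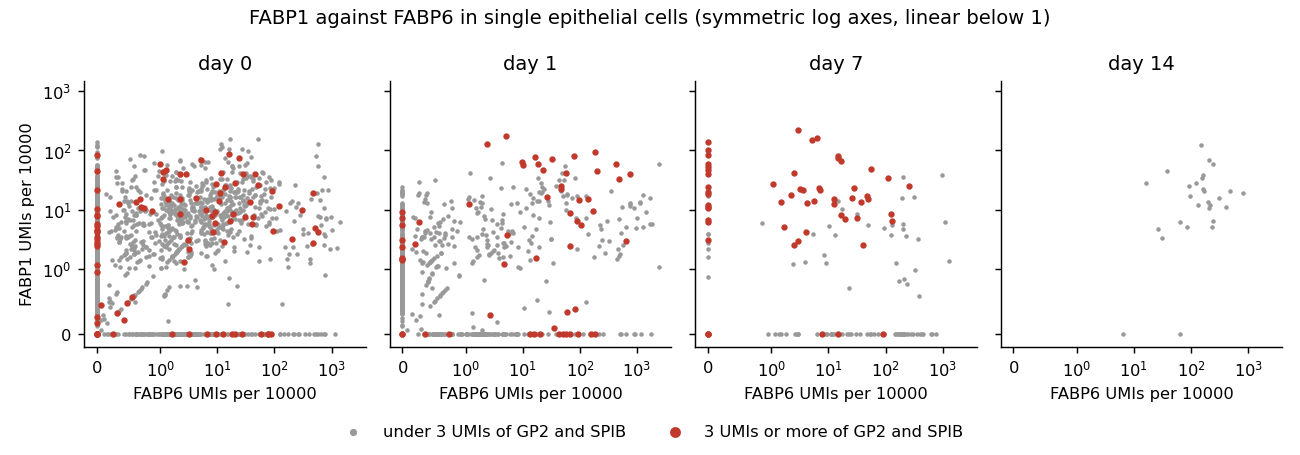
FABP1 (vertical axis) against FABP6 (horizontal axis), both in UMIs per 10000 with axes that are log above 1 and linear below, in single epithelial cells on days 0, 1, 7 and 14, with cells of 3 or more GP2 and SPIB UMIs in red. On day 7 the cells with most FABP1 are red, and those 58 cells held 89.9% of the FABP1 UMIs; on day 14 none is red.

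Epithelial cells at 25% or more mitochondrial UMIs were set against those below it within libraries that had 20 cells or more on each side. They numbered 205, 147 and 38 on days 0, 1 and 7. They were shallower, with median depths of 4652, 4743 and 1704 UMIs against 10654, 18161 and 6932. On day 0, 2 of 8 genes were called higher, against 4.18% of all genes. FABP6 stood at 32.8 against 11.6, a ratio of 2.83 (2.73 to 2.92), and SLC10A2, with 14 UMIs, at a ratio of 2.64 (1.42 to 4.55). FABP2 stood at 0.599 times and FABP1 at 1.08 times.

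The FABP6 ratio of day 0 rested on few cells. The highest cell held 676 of the 3822 FABP6 UMIs of the high side. Without it the level was 27.3, and without the highest 5 cells it was 13.7, against 9.87 on the low side without its highest 5. Without cells holding GP2 or SPIB UMIs the ratio was 1.26, so the call was lost.

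On day 1, 1 of 8 genes was called higher, against 5.44%, and 4 lower, against 18.5%. SLC10A2 stood at 3.63 (2.19 to 5.75) times the level of the low side. FABP1 stood at 0.237 times, FABP2 at 0.289, SLC51B at 0.484 and NR0B2, with 3 UMIs, at 0.213. FABP6 stood at 41.6 against 27.3, a ratio of 1.52 that was 0.894 with the 5% of cells with most UMIs left out and 2.94 with the split at 15% mitochondrial UMIs. SLC51A stood at 1.00 times and NR1H4 at 0.649 times. FABP1 and FABP2 thus stood low in the high mitochondrial cells of day 1 while SLC10A2 did not. With the split at 15%, FABP1 stood at 0.733 times, FABP2 at 0.698, SLC51B at 0.813 and NR0B2 at 0.836, so these 4 calls were then lost. SLC10A2 stood at 2.17 times with that split. The marker lists differed between the sides too. The goblet list stood at 54.6 on the high side against 144 on day 0 and at 19.2 against 94.4 on day 1, the enteroendocrine list at 56.3 against 98.8 and 13.9 against 38.7, and the enterocyte list at 61.1 against 50.4 and 113 against 139. Their part in the ratios was not tested.

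On day 7 the ratios of all 8 genes compared lay below 0.5, against 27.7% of all genes, and for 6 of the 8 the interval lay below 1. FABP6 stood at 52.7 against 111, a ratio of 0.474 that was 0.678 with totals without mitochondrial UMIs, so that this call was then lost. FABP1 stood at 0.393 times, and at 0.986 times with the split at 15% mitochondrial UMIs, so that its call was then lost too. FABP2 stood at 0.128 times. SLC51A, SLC51B and NR1H4 had 1, 3 and 1 UMIs. SLC10A2 and NR0B2 had none, with ratios of at most 1.04 and 3.65 by their intervals, so a difference was not detectable at this depth. The enterocyte list stood at 5.78 in these 38 cells against 102 on the low side, and its part in the ratios was not tested.

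In the enterocyte-list subset the split gave, on day 0, 3 of 9 genes higher, against 5.78%, and 1 lower, against 14.2%. FABP6 stood at 2.33 times, SLC10A2 at 2.15, FGF19, with 11 UMIs, at 2.14 and FABP2 at 0.498. On day 1, 1 of 8 was higher, against 6.5%, and 4 lower, against 20.6%, with SLC10A2 at 3.05 times, FABP1 at 0.210, FABP2 at 0.268, SLC51B at 0.448 and NR0B2 at 0.148.

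**Figure D5:**
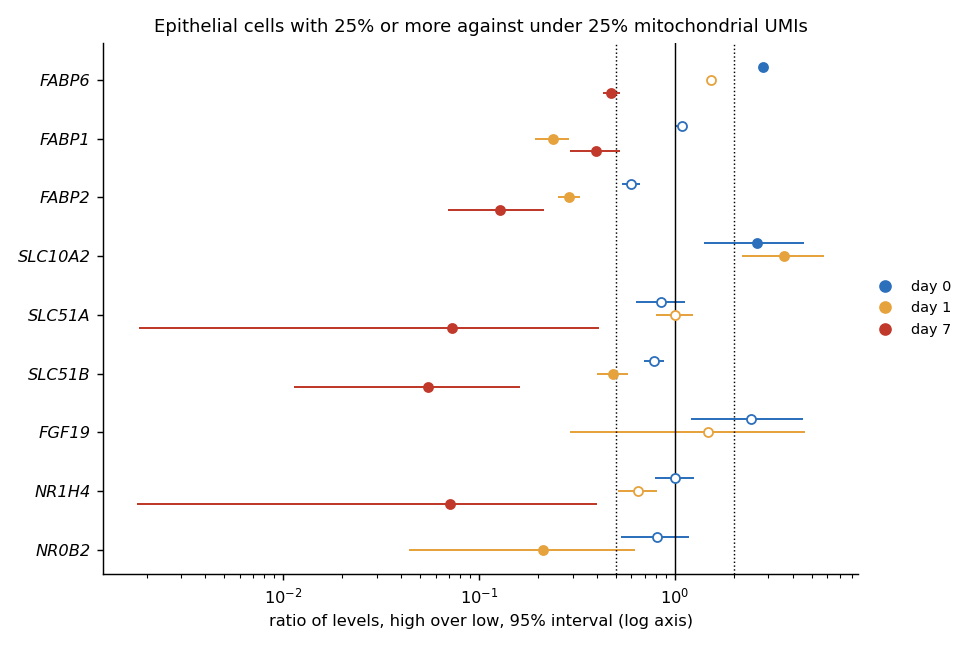
Ratio of levels in epithelial cells with 25% or more over those with under 25% mitochondrial UMIs (log axis) for each gene on days 0 (blue), 1 (orange) and 7 (red), with exact 95% intervals. Filled points are 2-fold or more at the minimum level of 0.1, dotted lines mark 0.5 and 2, and genes with 0 UMIs on a side are not drawn; FABP6 stands at 2.83, 1.52 and 0.474.

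FABP6 in background barcodes and immune cells stood highest on days 0, 1 and 7, the ages with most epithelial cells. In background barcodes FABP6 stood at 8.27, 13.7, 0.192, 3.94, 0.262 and 0.0265 on days 0, 1, 3, 7, 14 and 21, and in immune cells at 0.335, 0.344, 0.0246, 0.229, 0.00906 and 0.0106. FABP2 in background barcodes stood at 2.63, 3.16, 0.00519, 0.477, 0.120 and 0.0189. The day 14 background was thus low although the 27 epithelial cells of that day had the highest levels.

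FABP1 in background barcodes stood at 3.56, 1.83, 1.94, 2.09, 0.0426 and 0.178 on days 0 to 21, with day 3 at the level of days 1 and 7. That likeness depended on the barcodes taken. On days 1, 3 and 7 FABP1 stood at 1.17, 2.02 and 2.05 in those of 50 UMIs or fewer. In those of 10 to 100 UMIs it stood at 2.13, 2.73 and 5.11. The ratio of FABP1 to FABP6 UMIs was 0.662 in epithelial cells, 0.602 in immune cells and 0.431 in background barcodes on day 0, and 0.170, 0.130 and 0.134 on day 1. On day 3 it was 0.809 in epithelial cells, 0.188 in immune cells and 10.1 (7.20 to 14.6) in background barcodes. On day 7 it was 0.140, 0.195 and 0.530 (0.484 to 0.580), and on day 14 it was 0.133, 0.228 and 0.163 (0.0975 to 0.259). On day 21 it was 0.212 in immune cells and 6.71 (3.02 to 17.6) in background barcodes. On days 3 and 7 the background ratio was therefore above those of both the epithelial and the immune cells. The day 21 value turned with the choice of barcodes: those of 50 UMIs or fewer held 46 FABP1 and 2 FABP6 UMIs, and those of 10 to 100 UMIs held 3 and 5. The day 7 value moved as well, with 701 FABP1 and 1343 FABP6 UMIs in the former barcodes and 297 and 216 in the latter. GP2 in background barcodes stood at 0.158, 0.138, 0.270, 0.428, 0.607 and 0.726 on days 0 to 21, and EPCAM at 3.75, 2.68, 0.109, 0.305, 0.0426 and 0.0151. The part of GP2 cells in the FABP1 of the background was not tested.

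Other genes of the pathway were taken from lists of known transporters, receptors, enzymes and binding proteins. Of the bile acid transport list of 10 genes, 4 or 5 reached the minimum level. Between days 0 and 1, 2 of 4 were 2-fold or more higher (ABCC3 and ABCG2), against 5.99% of all genes, and between days 1 and 3 all 4 compared were lower, against 16.3%. Between days 3 and 7, 4 of 5 were higher, against 20.4%. Between days 7 and 14, 1 of 5 was higher (ABCC3), against 10.3%, and 1 lower (SLCO2B1, with 1 UMI on day 14), against 34.4%. ABCC3, a basolateral export pump, stood at 0.198, 0.398, 0.197, 0.400 and 0.961 on days 0, 1, 3, 7 and 14. ABCC2, an apical export pump, stood at 0.440, 0.424, 0.183, 0.734 and 1.13, and ABCB1 at 0.672, 0.763, 0.225, 1.51 and 2.37.

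Of the 16 receptors and partners, 10 or 11 reached the minimum level. Between days 0 and 1, 1 of 10 was higher (VDR), against 5.99%. Between days 1 and 3, those lower included RXRA, NR1I2 and CDX2. Between days 3 and 7, those higher included RXRA, NR1I2 and VDR, and 1 of 11 was lower (RXRB), against 14.9%. Between days 7 and 14, 2 of 11 were higher (VDR and PPARA), against 10.3%, and 2 lower (KLB and FGFR4), against 34.4%. PPARA had 2 UMIs, FGFR4 had 1 and KLB none on day 14. VDR, the vitamin D receptor, stood at 0.0773, 0.212, 0.113, 0.234 and 0.509, and NR1I2, the pregnane X receptor, at 0.463, 0.805, 0.296, 0.818 and 1.36. HNF4A, a regulator of intestinal genes, stood between 0.733 and 1.07 at the 5 ages, and GATA6 at 1.57, 1.37, 0.930, 1.03 and 0.905.

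The metabolism list had 9 of its 10 genes in the files and 2 to 4 at the minimum level. NPC1L1, the sterol uptake carrier, stood at 0.403, 0.802, 0.127, 0.692 and 1.19, and SOAT2, which esterifies cholesterol, at 0.525, 0.852, 0.169, 0.934 and 1.13. Both were called lower between days 1 and 3, 2 of the 3 genes compared, against 16.3%, and higher between days 3 and 7, 2 of 4, against 20.4%. UGT2B31 went the other way, higher on day 3 (15.8% of all genes) and lower on day 7 (14.9%), with 39, 13 and 3 UMIs on days 1, 3 and 7. CYP3A29, with no UMI in the 27 cells of day 14, was the 1 of 3 genes lower between days 7 and 14, against 34.4% of all genes.

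Of the other lipid-binding proteins, 11 of 13 were in the files. Between days 0 and 1 RBP2 was higher, 1 of 6 compared against 5.99% of all genes, and FABP4 and FABP5 were lower, 2 of 6 against 1.81%. Between days 7 and 14 RBP2 was higher, 1 of 6 against 10.3%, and FABP3, FABP5 and SCP2, which had no UMI in the 27 cells of day 14, were lower, 3 of 6 against 34.4%. At 3 counts the 27 cells allow levels of up to 0.170. The day 7 levels of FABP3 (0.225), FABP5 (0.442) and FGFR4 (0.384) lie above that limit, and those of CYP3A29 (0.142), KLB (0.133), SLCO2B1 (0.125) and SCP2 (0.117) below it, so for the last 4 a difference was not detectable at this depth. Between days 1 and 3, 2 of 5 were higher (FABP3 and CRABP1), against 15.8%, and those lower included RBP2. Between days 3 and 7, those higher included FABP5 and RBP2, and 1 of 7 was lower (CRABP1), against 14.9%. RBP2 stood at 17.7, 37.1, 0.0705 and 36.5 on days 0, 1, 3 and 14 and between 10.5 and 11.7 by its interval on day 7, and DBI, the acyl-CoA binding protein, at 1.91, 3.70, 1.97, 3.05 and 2.15 on days 0, 1, 3, 7 and 14.

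The genes most like the 3 binding proteins were ranked over 2823 genes by Pearson r of log2(UMIs per 10000 + 0.1) in 8 epithelial pools, which are ages by mitochondrial side and share libraries. They are a description with no test. For FABP6 they were CDHR5 (r of 0.979), HEPH (0.978), CEACAM1 (0.974), ANKS4B (0.971) and FZD5 (0.969). For FABP2 they were LOC100736850 (0.981), MPP5 (0.980), PLPP2 (0.977), PDLIM2 (0.972) and B3GNT8 (0.962). For FABP1 the values were lower, with LOC110258364 (0.869), CALML4 (0.862), EFNB1 (0.861), PPIC (0.853) and POLD4 (0.834). Among the other genes described here, FABP6 gave 0.831 with FABP2, 0.786 with SLC51A, 0.725 with NR1H4, 0.724 with SLC51B, 0.718 with SLC10A2 and 0.586 with FABP1, and FABP2 ranked only 129 among genes like FABP6.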

How the data were processed

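The deposited files hold, for each of the 6 libraries, raw UMI counts per gene and barcode that the authors made with Cell Ranger 3.1.0 and its aligner STAR against Sscrofa11.1 (susScr11 per the labels), unfiltered and not normalized. Reads aligned to other places or shared between similar genes were handled upstream, and the barcodes were not cut down to the authors' cells. All sample-level grouping was by the age in the labels, and no sample was left out. Positions came from a RefSeq table of the same assembly, in which all 20648 symbols of the files were found.

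Cells, epithelial gate, mitochondrial split (13 genes of the mitochondrial genome), subsets and levels were computed as described with the results. No annotation of cells was used. Doublets were kept, and leaving out the top 5% of UMIs was tried instead. Pools under 20 cells entered no ratio. Genes named are the 9 genes, pathway genes at 0.5 UMIs per 10000 or more in an epithelial pool, genes of the gate and marker lists, and the 5 genes most like each of FABP6, FABP1 and FABP2. Pathway genes below that level are named where they passed 2-fold, chosen with their values known. Some genes of the pathway lists are not reported here. For other names the text states that they were picked with their values known. The 9 genes and the lists were chosen with earlier results of these data known. With 1 library per age no p-value was computed. On simulated data, ratios were set against known ones and intervals against true values, and the counts of genes past 2-fold were not checked. Other gates, splits, depths, denominators, scalings, corrections for free RNA, minimum levels and folds were tried. Near the cuts, 320, 185, 28, 117, 2 and 0 cells of days 0 to 21 held 3 or 4 UMIs of the gate genes and 193, 77, 9, 39, 2 and 0 held 5 or 6. Within 5 percentage points below the mitochondrial cut lay 110, 37, 6, 17, 3 and 0 cells and within 5 above it 54, 26, 3, 17, 0 and 0. The software was Python 3.11.15 with numpy 2.4.6, pandas 2.3.3, scipy 1.17.1 and matplotlib 3.10.9, and edgeR 4.0.16 in R 4.3.3 for scaling factors.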

Additional observations from a re-analysis of the deposited data

Results flagged for a closer look

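The ratio of FABP6 between epithelial cells at 25% or more and under 25% mitochondrial UMIs went in opposite directions at different ages, and stood at 2.83, 1.52 and 0.474 for days 0, 1 and 7. The day 0 ratio was 1.26 without cells holding GP2 or SPIB UMIs, the day 1 ratio 0.894 with the 5% of cells with most UMIs left out, and the day 7 ratio 0.678 with totals without mitochondrial UMIs. With 1 library per age, the difference between ages was not tested.

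FABP6 was also measured in cells that were neither epithelial nor immune by the gates, which no comparison used. They include cells just short of the epithelial gate, with 3 or 4 UMIs of its genes: 320, 185, 28, 117 and 2 on days 0, 1, 3, 7 and 14. A further 235, 112, 13, 64 and 8 held 5 or more but over 1 UMI of PTPRC. The part of both in the FABP6 of these cells was not tested. Its level there was 2.61 on day 0 (4720 cells), 3.12 on day 1 (4475 cells), 0.622 on day 3 (2256 cells), 5.84 on day 7 (1940 cells) and 4.04 on day 14 (641 cells), above the immune cells of the same libraries. It was below the background barcodes on days 0 and 1, at 8.27 and 13.7, and above them on days 3, 7 and 14, at 0.192, 3.94 and 0.262. On day 21, 1 UMI in 510 such cells gave 0.00824, against 0.0106 in immune cells. Among cells led by myeloid genes, 1 cell held 149 of the 151 FABP6 UMIs of day 14, and 1 of 1050 held 475 of the 749 of day 1.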

How the results depend on the processing

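Of 252 counts of genes past the fold recomputed under an alternative, 232 were equal to the value given or within 1.5 times of it. Some of the values given were 0, such as the genes lower between days 3 and 7. The 232 therefore hold counts that only stayed at 0. Ratios of single genes were judged by another rule: of 924, 715 lay within the counting interval of the ratio given and 209 outside it. That interval is narrow for genes with many UMIs and wide for genes with few, so 715 does not count ratios close in size. No ratio past 2-fold changed direction. Between days 0 and 1 the count higher was 2 with the mean over cells, 4 at 1.5-fold, 0 in the enterocyte-list subset and 2 without GP2 or SPIB cells. The count lower was 1 with the mean over cells, with the top 5% of UMIs left out and with relative log expression scaling, and 2 at 1.5-fold. For high over low mitochondrial cells on day 1, the count higher was 2 with totals without mitochondrial UMIs, with totals also without the top 5 genes, with the split at 15% and at 1.5-fold, and the count lower was 2 with the top 5% left out and 0 with the split at 15%. On day 7 the count lower was 5 with the top 5% left out. On day 0 the count higher was 1 with the split at 15% or 40%, and the count lower was 1 with the split at 40%, at 1.5-fold and in the enterocyte-list subset. The causes were not tested. The subset, top-cell and GP2 or SPIB alternatives were chosen after seeing the data.

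FABP6 ratios between days 0 and 1 ranged from 1.92 in the enterocyte-list subset to 3.64 with the top 5% left out. FABP1 between days 7 and 14 stood at 1.68 and, without GP2 or SPIB cells, at 11.6. Without these cells FABP1 between days 1 and 3 stood at 0.00887 and FABP6 at 0.0145. SLC10A2 between days 7 and 14 ranged from 16.3 to 28.5 and SLC51A from 7.41 to 13.3. The FABP6 ratio of high over low mitochondrial cells ranged from 1.26, without GP2 or SPIB cells, to 4.54 on day 0, from 0.894 to 2.94 on day 1 and from 0.227 to 0.678 on day 7. No paired analysis was possible because each age has 1 library, and for that reason no library could be left out.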
